A study of Mus musculus with 6 samples.

Results

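Most SLC25 genes encode mitochondrial carriers, the proteins that let metabolites cross the inner mitochondrial membrane. Members were the non-control probes of the array whose gene name was Slc25a followed by a number, or Ucp1, Ucp2 or Ucp3. By its wording the rule leaves out a carrier whose name fits this pattern, and that carrier is not analysed here. The rule used no measured value and found 49 of the 37074 gene names on the array, with 107 of its 56605 probes. The RNA came from renal cortex of male mice aged 16 weeks and was run on one-colour Agilent arrays, with 3 arrays per group. The labels name the groups by genotype as db/m and db/db, both at 16 weeks and with no treatment named per array. Mice labelled db/db carry a mutation in the leptin receptor gene and become obese and diabetic, and db/m mice are heterozygous and non-diabetic. The paper's methods, and the design text deposited with the arrays, give both groups as db/db mice that were either treated with HQD, a herbal decoction, for 8 weeks or non-treated. The db/m arrays are therefore called labelled db/m, and the sources used here do not say which of the paper's groups they stand for. The dose of HQD on these arrays is not given either. Differences below are on the log2 scale with labelled db/db subtracted from labelled db/m, so that a negative value means a lower signal in the arrays labelled db/m. The labels give the tissue as renal cortex although they also speak of a glomerular transcriptome. Of the marker genes of the proximal tubule, the main cell of the cortex, 14 of 14 were tested, and of those of the podocyte, a glomerular cell, 5 of 5.

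Carriers of this family are built from a repeated module that spans the membrane, and they alternate between a state open to the cytosol and a state open to the matrix. Most of them exchange one substrate for another, such as ADP for ATP, malate for phosphate or aspartate for glutamate. The uncoupling protein Ucp1 lets protons back into the matrix. The proximal tubule runs almost entirely on mitochondrial oxidation, and its gluconeogenesis and ammonia formation need carriers that move malate, citrate, aspartate, glutamate and glutamine-derived carbon between matrix and cytosol.

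Signals are log2 intensities against the 75th percentile of the same array, and limma was run on the probes that stood well above background throughout 1 group or both, that is on each of its 3 arrays. That was the case for 81 probes of 43 carrier genes, among 29890 tested probes in all. Another 24 probes were too dim and 2 had an outlier flag. The 6 genes without a tested probe were Slc25a2, an ornithine carrier, Slc25a18, a glutamate carrier, Slc25a31, the adenine nucleotide translocase of the testis, Slc25a41, an ATP-Mg carrier, Slc25a54, and Ucp1, the uncoupling protein of brown fat. Ucp1 was too dim to be measured on each of the 6 arrays.

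No carrier passed a Benjamini-Hochberg adjusted p of 0.05 over all tested probes, and neither did any other probe of the array. The lowest adjusted p (limma) of a carrier was 0.24, against 0.0579 for all probes. An unadjusted p under 0.05 is used below only to describe, and is called nominal. By that measure 10 of 81 carrier probes (12.3%) had a lower signal in labelled db/m, where 10.8% of all tested probes were, and 4 (4.94%) were higher, where 6.90% of all were. Among the 4 was a Slc25a14 probe that was well above background in labelled db/m only. With the filter set on all 6 arrays, 15 were lower (11.9% of all probes) and 3 higher (5.88% of all). No overlap between the groups was seen for 16 carrier probes that were lower (19.8%, against 16.4% of all) and 5 that were higher (6.17%, against 7.75% of all). These shares lie near those of the whole array and are no result about the family. A screen for a log2 difference of 1 or more in size together with a nominal p passed 0 carrier probes and 0.960% of all. The count of 10 moved with the processing and with single arrays. Blocking on the slide gave 2 (5.16% of all probes) and 23 came with each array centred on its median (19.3% of all). With db/m replicate 2 left out it was 21 (13.7% of all probes) and with db/db replicate 3 left out 16 (13% of all). It was 6 with db/m replicate 3 left out (4.06% of all) and also with db/db replicate 2 left out (5.14% of all).

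The brightest tested probe stood for each gene in what follows. In the arrays labelled db/m the mean over the 43 carrier genes was 1.84, 1.94 and 1.86, and in those labelled db/db it was 1.99, 2.09 and 1.96, so that the groups did not overlap. The margin was narrow, and these means were not set against those of other genes of the same signal. Bright probes of the whole array were mostly lower in labelled db/m too, as given below. The median difference of the 43 genes was -0.14, with 32 genes below 0, whereas over all 15484 genes it was -0.04, with 56.6% below 0. Among the genes, 5 of 43 were nominally lower (11.6%, against 9.76% of all genes) and 0 were nominally higher (5.44% of all genes). The 5 were Slc25a10, Slc25a1, Slc25a12, Slc25a28 and Slc25a5. Slc25a16, Slc25a33 and Ucp3 did not overlap between the groups either but missed a nominal p. That makes 7 genes without overlap that were lower (16.3%, against 16.3% of all genes) and 1 that was higher (2.33%, against 6.59% of all genes). Their values are given by role below.

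**Figure D1:**
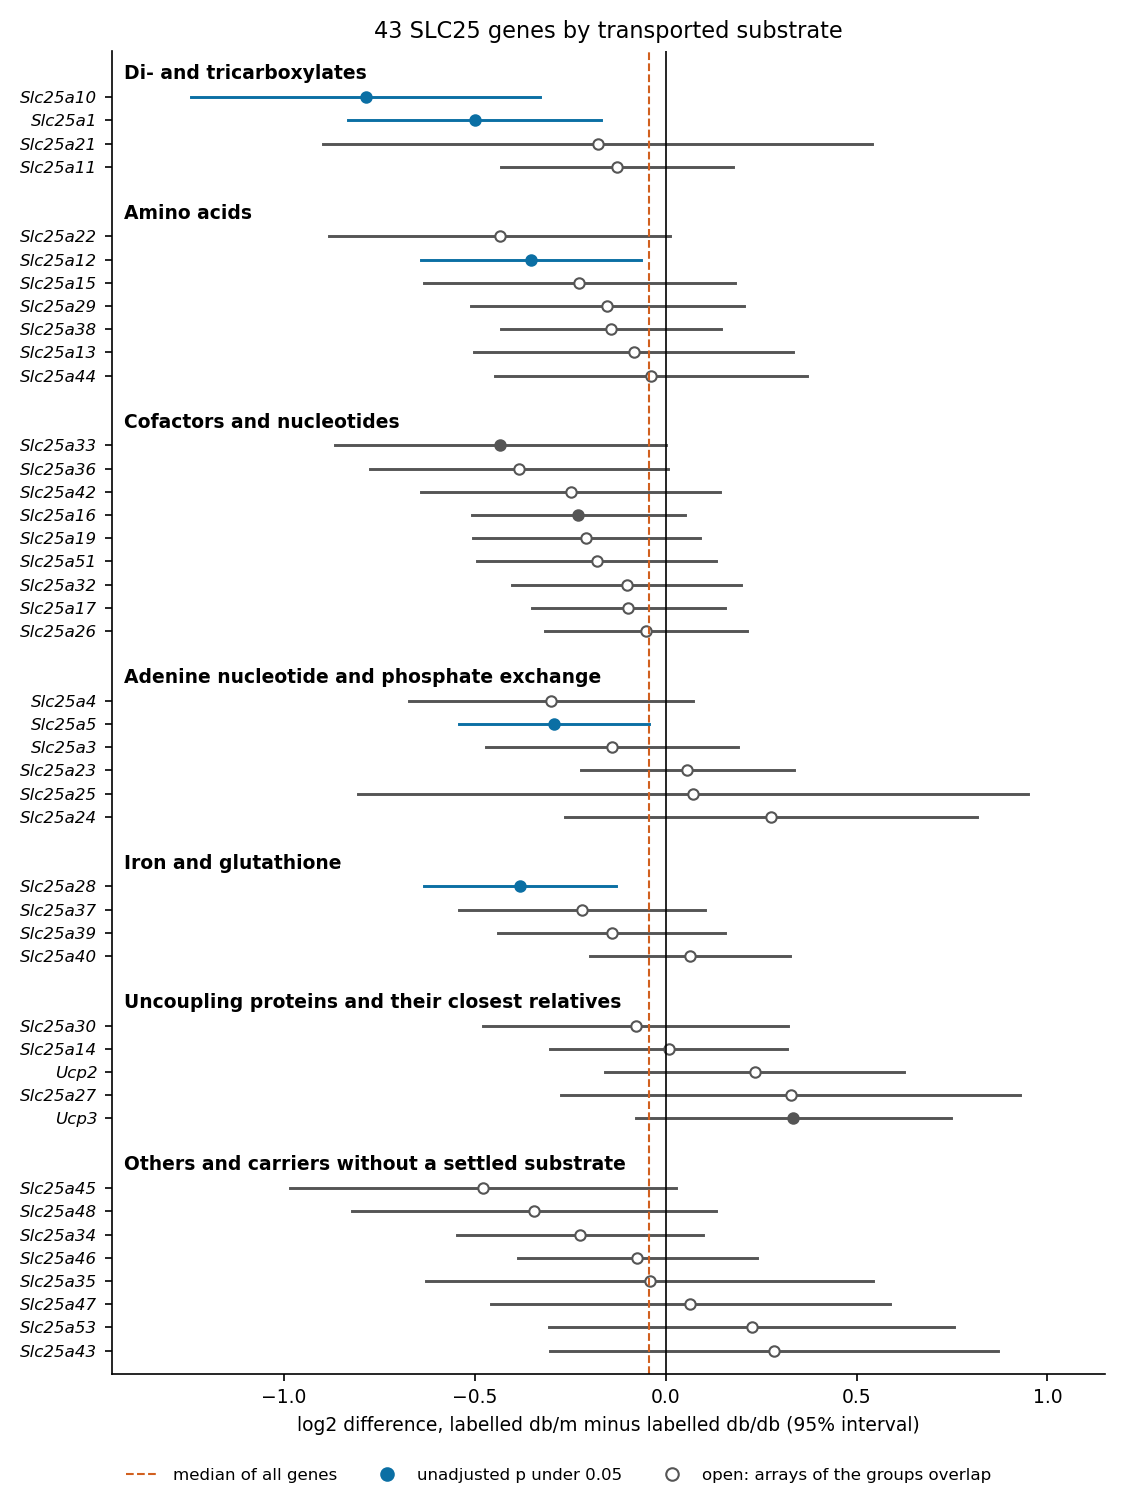
The log2 difference (labelled db/m minus labelled db/db) of the brightest tested probe of each of 43 carrier genes, grouped by what the carrier transports, with the 95% interval of the limma fit as a line. Filled points mark genes whose arrays do not overlap between the groups, blue marks a nominal p, and the dashed line is the median of all genes (-0.04). The 4 di- and tricarboxylate carriers, the 7 amino acid carriers and the 9 cofactor and nucleotide carriers all lie below 0, while 4 of 5 uncoupling proteins and relatives lie above it.

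The promoters of the 2 carriers with the most negative differences, which also stayed nominal under every alternative tried are shown here so that the letters before these genes can be read. No value here tests the promoters. The windows are from RefSeq on GRCm38.p6 and run from 250 bases before the gene's first base to 50 bases from it onwards, 5′ to 3′ on the strand of the gene, with capitals for the motifs found. Slc25a1 lies on the minus strand at chr16:17928170-17928469 and Slc25a10 on the plus strand at chr11:120491587-120491886.
Slc25a1: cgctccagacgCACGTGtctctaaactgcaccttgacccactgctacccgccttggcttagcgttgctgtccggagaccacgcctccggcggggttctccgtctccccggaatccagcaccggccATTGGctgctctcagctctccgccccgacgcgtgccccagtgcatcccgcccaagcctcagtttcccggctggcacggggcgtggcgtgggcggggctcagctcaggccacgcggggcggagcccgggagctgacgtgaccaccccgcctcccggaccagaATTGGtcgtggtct
Slc25a10: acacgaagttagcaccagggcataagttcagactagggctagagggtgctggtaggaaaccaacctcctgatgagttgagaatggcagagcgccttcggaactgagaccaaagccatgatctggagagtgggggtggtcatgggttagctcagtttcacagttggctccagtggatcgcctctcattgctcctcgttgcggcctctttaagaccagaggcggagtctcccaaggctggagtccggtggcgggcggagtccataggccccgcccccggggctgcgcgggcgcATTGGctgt
The motifs listed in the next paragraph were searched on both strands, and none of the matches found in these windows overlapped another. The Slc25a1 window held CACGTG, an E-box, from -239 to -234 and CCAAT, the NF-Y motif, on the opposite strand from -125 to -121 and from 36 to 40, with position 0 at the first base of the gene. The Slc25a10 window held CCAAT on the opposite strand from 41 to 45 and none of the other motifs.

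Promoter windows were at hand for 38 of the 49 carrier genes, with 48 windows in all, and 32851 windows of the same length stood for all genes. CCAAT was in 45.8% of the carrier windows and 37.4% of all, CACGTG in 16.7% and 7.15%, and CCGGAAG, an ETS motif, in 12.5% and 8.86%. The core of the NRF1 motif, GCGCANGC, was in 16.7% of the carrier windows and 9.95% of all. TCACNCCA, an SREBP motif, was in 4.17% and 4.36%, AAGGTCA, a half-site of nuclear receptors such as ERR alpha, in 2.08% and 4.72%, and TATAAA in 4.17% and 13.6%. The median GC content was 59.7% over the carrier windows and 52.7% over all windows, which bears on how often such letters occur. These are descriptions of letters, not of bound sites.

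Di- and tricarboxylate carriers link the citric acid cycle to the cytosol. Slc25a10 is the dicarboxylate carrier, which exchanges malate or succinate for phosphate. Its signal (NM_013770, chr11:120359439-120359498 of mm9) was 1.09, 1.75 and 1.27 in the arrays labelled db/m and 2.18, 2.30 and 1.99 in those labelled db/db. All 3 arrays labelled db/m lay below all 3 labelled db/db, and labelled db/m replicate 2 was the nearest to the other group. The difference was -0.79 (SE 0.19, limma adjusted p = 0.24), the most negative among the 43 genes. Slc25a1 is the citrate carrier, which exports citrate for the synthesis of fatty acids and sterols. Its brightest probe (NM_153150, chr16:17925661-17925720 of mm9) gave 2.46, 2.85 and 2.63 in the arrays labelled db/m and 3.06, 3.29 and 3.10 in those labelled db/db, again without overlap. The difference was -0.50 (SE 0.14, limma adjusted p = 0.24). A second probe of Slc25a1, at chr16:17927280-17927339, gave -0.49 (limma adjusted p = 0.242), so that both probes had nearly the same difference.

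By the brightest probe, both carriers kept a nominal p under all 18 alternatives tried. Their differences ran between -0.98 and -0.65 for Slc25a10 and between -0.69 and -0.40 for Slc25a1. The second Slc25a1 probe lost its nominal p in 4 of the 18. Of the 3 slides, the first alone held both groups, namely replicate 1 of the arrays labelled db/m together with replicate 3 of those labelled db/db. Between these arrays Slc25a10 differed by -0.89, Slc25a1 by -0.63 and the second Slc25a1 probe by -0.38. The same values come from the fit with the slide as a block, because each of the other slides carried 1 group only. The nominal p of that fit thus sets 1 array against 1 and takes its spread from the arrays of the other slides and from the other probes. Labelled db/m replicate 1 stood apart in its tissue markers. Of the 6 arrays it had the lowest proximal tubule (5.68) and podocyte (1.03) means and the highest thick limb mean (5.21). Without that array Slc25a10 differed by -0.65 and Slc25a1 by -0.41. The remaining carriers of this group were Slc25a11, the oxoglutarate carrier of the malate-aspartate shuttle, at -0.13, and Slc25a21, the oxodicarboxylate carrier, at -0.18. A second Slc25a11 probe, at chr11:70458409-70458585, was nominally lower at -0.35 (limma adjusted p = 0.259), and its arrays did not overlap. The median of the 4 genes was -0.34. After quantile normalization 1 of the 4 lay above the median of all tested probes.

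**Figure D2:**
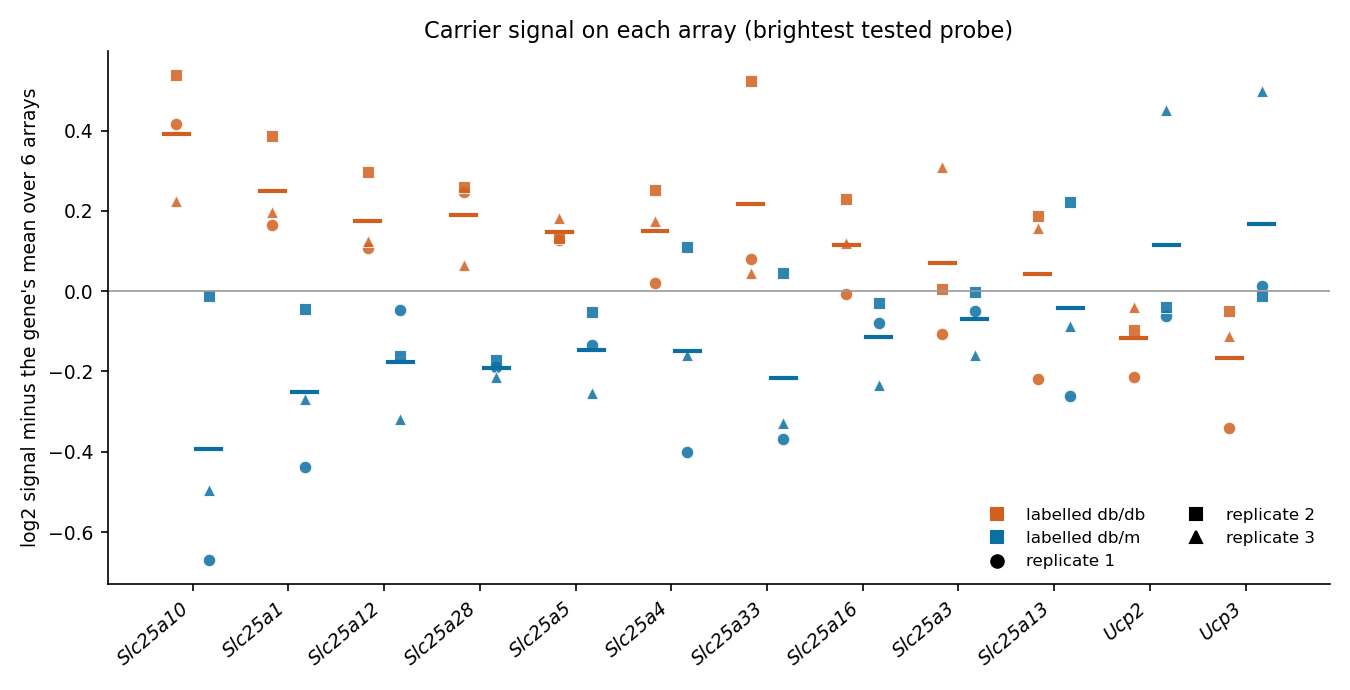
Log2 signal of the brightest tested probe of 12 named carriers on each of the 6 arrays, less the gene's mean over the 6 arrays, with a bar for each group's mean and a marker shape for each replicate. For Slc25a10, Slc25a1, Slc25a12, Slc25a28 and Slc25a5 every array labelled db/m (blue) lies below every array labelled db/db (orange), and for Ucp3 every one lies above.

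Amino acid carriers all lay below 0, where 56.6% of all genes did, with a median of -0.15 over 7 genes. Of the 7, 1 was nominally lower (14.3%, against 9.76% of all genes). After quantile normalization 1 of the 7 lay above the median of all tested probes. Slc25a12 (aralar) brings glutamate into the matrix in exchange for aspartate and is a part of the malate-aspartate shuttle. Its brightest probe (NM_172436, chr2:71112979-71113038 of mm9) gave 3.18, 3.07 and 2.91 in the arrays labelled db/m and 3.34, 3.53 and 3.35 in those labelled db/db. The groups did not overlap, and the difference was -0.35 (SE 0.12, limma adjusted p = 0.247). A second probe close to it, at chr2:71113256-71113315, gave -0.56 (limma adjusted p = 0.24), while the other 3 Slc25a12 probes lay between -0.11 and -0.03. On the slide with both groups the brightest probe differed by -0.17. Slc25a13 (citrin), the other aspartate-glutamate carrier and a part of the urea cycle in liver, gave 3.48, 3.97 and 3.65 in the arrays labelled db/m and 3.52, 3.93 and 3.90 in those labelled db/db. These arrays overlapped, the difference was -0.08 (95% interval -0.50 to 0.33), and its sign changed with the scaling. A second Slc25a13 probe, at chr6:6018374-6018433, was at -0.30 without overlap and without a nominal p. The others were Slc25a22, a glutamate carrier, at -0.43 with overlapping arrays, Slc25a15, the ornithine carrier of the urea cycle, at -0.23, Slc25a29 at -0.15, Slc25a38, the glycine carrier of haem synthesis, at -0.14 and Slc25a44, a carrier of branched-chain amino acids, at -0.04.

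Carriers of cofactors and nucleotides lay below 0 in 9 of 9 genes, with a median of -0.21 and a range from -0.43 to -0.05, and 0 of them had a nominal p. Slc25a33, a pyrimidine nucleotide carrier, was the lowest of them at -0.43. It missed the nominal threshold narrowly and passed it in 8 of 18 alternatives, so that the count of 0 turns on this gene. It gave 1.17, 1.58 and 1.21 in the arrays labelled db/m and 1.62, 2.06 and 1.59 in those labelled db/db, which did not overlap by a narrow margin. Slc25a16 gave 1.90, 1.95 and 1.74 against 1.97, 2.21 and 2.10, a difference of -0.23, also without overlap, while its second probe, at chr10:62392505-62392564, lay on the other side at 0.41 with overlapping arrays. Slc25a36, the other pyrimidine nucleotide carrier, had -0.38 and Slc25a42, which imports coenzyme A, -0.25, each with overlapping arrays. After quantile normalization 3 of the 9 genes lay above the median of all tested probes, against 0 of 9 with the 75th percentile.

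Adenine nucleotide and phosphate carriers feed ATP synthase and bring its product to the cytosol. Slc25a5 is the adenine nucleotide translocase ANT2. Its probe (NM_007451, chrX:34338561-34338620 of mm9) gave 6.54, 6.62 and 6.42 in the arrays labelled db/m and 6.80, 6.81 and 6.86 in those labelled db/db, which did not overlap. The difference was -0.29 (SE 0.10, limma adjusted p = 0.251). It was -0.09 after quantile normalization and lost its nominal p in 10 of 18 alternatives. Slc25a4 is ANT1, the translocase of heart and muscle. Its brightest probe gave 6.84, 7.35 and 7.08 in the arrays labelled db/m and 7.26, 7.49 and 7.42 in those labelled db/db, a difference of -0.30 (95% interval -0.67 to 0.07) with labelled db/m replicate 2 inside the range of the other group. Over the 18 alternatives this difference ran from -0.57 to -0.12. Without labelled db/m replicate 1 it was -0.18, and without replicate 2 of that group -0.43. Its second probe, at chr8:47294441-47294500, had no overlap and -0.49 (limma adjusted p = 0.24). Slc25a3, the phosphate carrier, gave 5.59, 5.64 and 5.49 against 5.54, 5.65 and 5.95, a difference of -0.14 (95% interval -0.47 to 0.19) that was -0.02 without labelled db/db replicate 3.

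The calcium-regulated ATP-Mg carriers of the same group lay above 0, with Slc25a24 at 0.28, Slc25a25 at 0.07 and Slc25a23 at 0.06, all with overlapping arrays by their brightest probes, so that the median of the 6 genes was -0.04. Of the further probes of Slc25a23 and Slc25a25, 3 also lay above 0, between 0.05 and 0.08. The others went the other way, with a Slc25a23 probe (chr17:57186691-57186750) at -0.27 without overlap and a Slc25a25 probe (chr2:32272932-32273261) at -0.50 with overlapping arrays. Slc25a25 had the largest SE of the 43 genes (0.37), since arrays of the same group differed widely. Its brightest probe gave 2.20, 3.22 and 3.10 in the arrays labelled db/m and 2.58, 3.41 and 2.31 in those labelled db/db. Another Slc25a25 probe, at chr2:32270611-32270670, gave 1.42, 2.52 and 2.39 and then 1.88, 2.65 and 1.64, so that both probes were high on labelled db/m replicates 2 and 3 and on labelled db/db replicate 2.

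Iron and glutathione carriers serve haem and iron-sulphur cluster synthesis and the redox state of the matrix. Slc25a28 is mitoferrin-2, which imports iron in cells other than red cell precursors. Its probe (NM_145156, chr19:43738444-43738503 of mm9) gave 2.77, 2.79 and 2.75 in the arrays labelled db/m and 3.21, 3.22 and 3.03 in those labelled db/db. The arrays labelled db/m were almost identical and all lay below the other group, with a difference of -0.38 (SE 0.11, limma adjusted p = 0.24). It was -0.25 on the slide with both groups, the single alternative in which its p was not nominal (0.22). Slc25a37, mitoferrin-1 of red cell precursors, was at -0.22 with overlapping arrays. The median of 6 tested red blood cell markers was -0.20, with 0 nominal in either direction. Their means ran from 5.31 to 5.58 in the arrays labelled db/m and from 5.39 to 6.11 in those labelled db/db. The part of red blood cells in the Slc25a37 value was not tested. Slc25a39, a glutathione carrier, was at -0.14 by its brightest probe, whereas a second probe, at chr11:102266350-102267022, was at -0.60 (limma adjusted p = 0.24) without overlap. Slc25a40, its close relative, was at 0.06.

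Uncoupling proteins and their closest relatives had a median of 0.23 over 5 genes, and 0 of them had a nominal p. No other role had a median above 0 with this scaling, but that of the adenine nucleotide and phosphate carriers was 0.04 after quantile normalization. With the percentile taken over tested probes it was 0.05. That of the other members, among them carriers without a settled substrate, was then 0.03. Ucp3, the uncoupling protein of muscle and brown fat, gave -0.08, -0.10 and 0.41 in the arrays labelled db/m and -0.43, -0.14 and -0.20 in those labelled db/db. The groups did not overlap, but labelled db/m replicate 3 stood apart from the others, and the difference of 0.33 (95% interval -0.08 to 0.75) was 0.17 without that array. Ucp2, a widely expressed relative that is also abundant in immune cells, gave -0.16, -0.14 and 0.35 in the arrays labelled db/m and -0.31, -0.20 and -0.14 in those labelled db/db, which overlapped. Its difference was 0.23 (95% interval -0.16 to 0.62) and 0.07 without labelled db/m replicate 3, the array on which Ucp3 was also highest. The genes are neighbours on chromosome 7, with probes at chr7:107630399-107630458 for Ucp3 and chr7:107647809-107647868 for Ucp2. On the slide with both groups Ucp2 differed by -0.02 and Ucp3 by 0.12. Slc25a27 was at 0.33, Slc25a14 at 0.01 and Slc25a30 at -0.08.

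Markers of other cells were set beside these values. Over all genes, 5.44% were nominally higher and 9.76% nominally lower in the arrays labelled db/m. Of 7 immune cell markers, all tested, 3 were nominally higher in the arrays labelled db/m and the median difference was 0.51, with list means from 0.58 to 0.72 in the arrays labelled db/m and from -0.03 to 0.49 in those labelled db/db. Of 7 markers of white and brown fat, 3 were tested and 1, Fabp4, was nominally higher, and the means of these 3 ran from -0.13 to -0.01 in the arrays labelled db/m and from -0.55 to -0.14 in those labelled db/db. The other tested fat markers were Cidec at 0.10 and Lep at 0.20. Of the 4 that were not tested, Adipoq and Elovl3 were too dim on every array, as was Ucp1, while Plin1 and Cidea were well above background on some arrays. The part of either cell type in the Ucp2 and Ucp3 values was not tested. The 14 proximal tubule markers had a median of -0.26 with 1 nominally lower and 0 nominally higher, and their means ran from 5.68 to 6.29 in the arrays labelled db/m and from 6.06 to 6.21 in those labelled db/db. The part of this list in the lower values of the carriers was not tested either, and in whole tissue fewer cells of a type and less RNA per cell cannot be told apart. Lepr, the gene that the db mutation affects, differed by 0.42. It gave 1.385, 1.599 and 1.181 in the arrays labelled db/m and 0.604, 0.644 and 1.651 in those labelled db/db. The groups overlapped through labelled db/db replicate 3, which was the highest of the 6 arrays. The Lepr probe was not placed relative to the mutation, so that it does not check the labels.

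The other members, among them carriers without a settled substrate, had a median of -0.06 over 8 genes. Of the 8, 0 were nominal in either direction, where 9.76% of all genes were nominally lower and 5.44% higher. Slc25a45 was at -0.48 and Slc25a48 at -0.35, Slc25a43 was at 0.28, and the arrays of each overlapped. A second Slc25a45 probe gave -0.55 and a second Slc25a48 probe -0.35, so that both probes of each gene lay on the same side. Second or further probes of Slc25a46 (-0.29) and, among the cofactor carriers, of Slc25a26 (-0.21) did not overlap between the groups, where the brightest probes were at -0.07 and -0.05 with overlap.

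The differences of all probes ran with their signal. All tested probes were split by mean signal into 4 equal bins. In the dimmest of these bins the median difference was 0.16, and in the brightest it was -0.14. In the brightest bin 22 of 24 carrier probes were below 0, where 76.7% of all probes were, with a median of -0.24, and 7 of the 24 were nominally lower (29.2%, against 15.1% of all in that bin). By groups that do not overlap the share of lower carrier probes in that bin was 29.2% against 26.4% of all. The nominally lower share was 3 of 23 carrier probes against 13.8% of all in the next bin, and in the dimmer bins it was 0% against 8.74% and 0% against 5.46%. In the dimmest bin 5 of 10 carrier probes were below 0 and their median was -0.04. Scaling bears on this. Centring each array on its median moved the median of all tested probes from -0.03 to -0.21 and that of the carriers to -0.33, a shift that is the same for every probe. With the percentile taken over tested probes these medians were 0.06 and -0.05. The carriers' median less that of all tested probes was -0.11 as reported, -0.09 after quantile normalization, -0.08 with normexp background correction and -0.05 with no filter on dim probes. Relative to the median of all tested probes, the di- and tricarboxylate carriers lay at -0.31 with the 75th percentile and at -0.26 with quantile normalization, and the uncoupling proteins and relatives at 0.26 and 0.22.

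**Figure D3:**
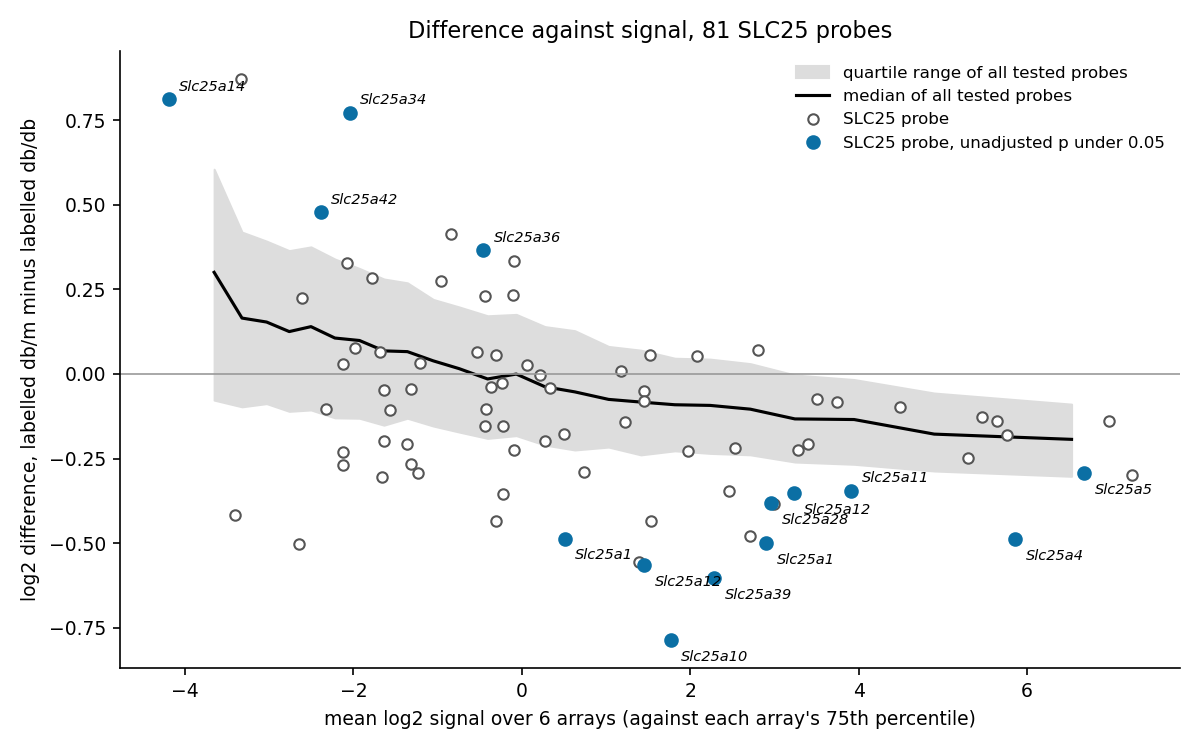
Log2 difference (labelled db/m minus labelled db/db) against the mean log2 signal over the 6 arrays for 81 carrier probes, over the median (line) and the range between the quartiles (grey) of all 29890 tested probes in 24 bins of signal. The line falls from 0.30 in the dimmest bin to -0.19 in the brightest, and the 10 nominally lower carrier probes lie below the grey band or at its edge.

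Several carriers had probes that did not give the same difference. Of 25 genes with several tested probes, 16 had all of them on the same side of 0 and 9 had probes on both sides. The 4 nominally higher carrier probes were all second or further probes of their genes, and all lay in the 2 dimmer of the 4 signal bins. In the dimmest bin 2 of 10 carrier probes were nominally higher, where 14.2% of all probes were. In the next bin it was 2 of 24, where 7.63% of all were. For Slc25a34 the second probe (chr4:141179390-141179449) gave -1.35, -1.68 and -1.95 in the arrays labelled db/m and -2.59, -2.63 and -2.07 in those labelled db/db, a difference of 0.77 (limma adjusted p = 0.24), while the brightest probe (chr4:141174747-141174806) was at -0.22. It kept a nominal p under all 18 alternatives. For Slc25a36 a probe at chr9:96992092-96992151 was at 0.37 (limma adjusted p = 0.24), while 3 others lay between -0.38 and -0.16. For Slc25a42 a probe at chr8:72716269-72716328 was at 0.48 (limma adjusted p = 0.24), against -0.25 and -0.20 for the others. The fourth was a Slc25a14 probe (chrX:45977154-45977213) that was too dim on each of the 3 arrays labelled db/db, where its measured mean was -4.60 against -3.79 in the arrays labelled db/m. Each dim array was given the higher of the probe's measured signal and the lowest signal that counted as well above background there, and the probe was then at least 1.14-fold higher, a bound without a test. Its nominal p came from the measured values, which were not well above background in labelled db/db, and with normexp background correction its difference was 0.20 and not nominal. The most positive difference of any carrier probe, 0.87 for a Slc25a32 probe, came from labelled db/m replicate 2 alone, at -1.24 where the other 5 arrays lay between -4.08 and -3.58. Which exon or untranslated part each probe lies in is not given in the sources used here.

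**Figure D4:**
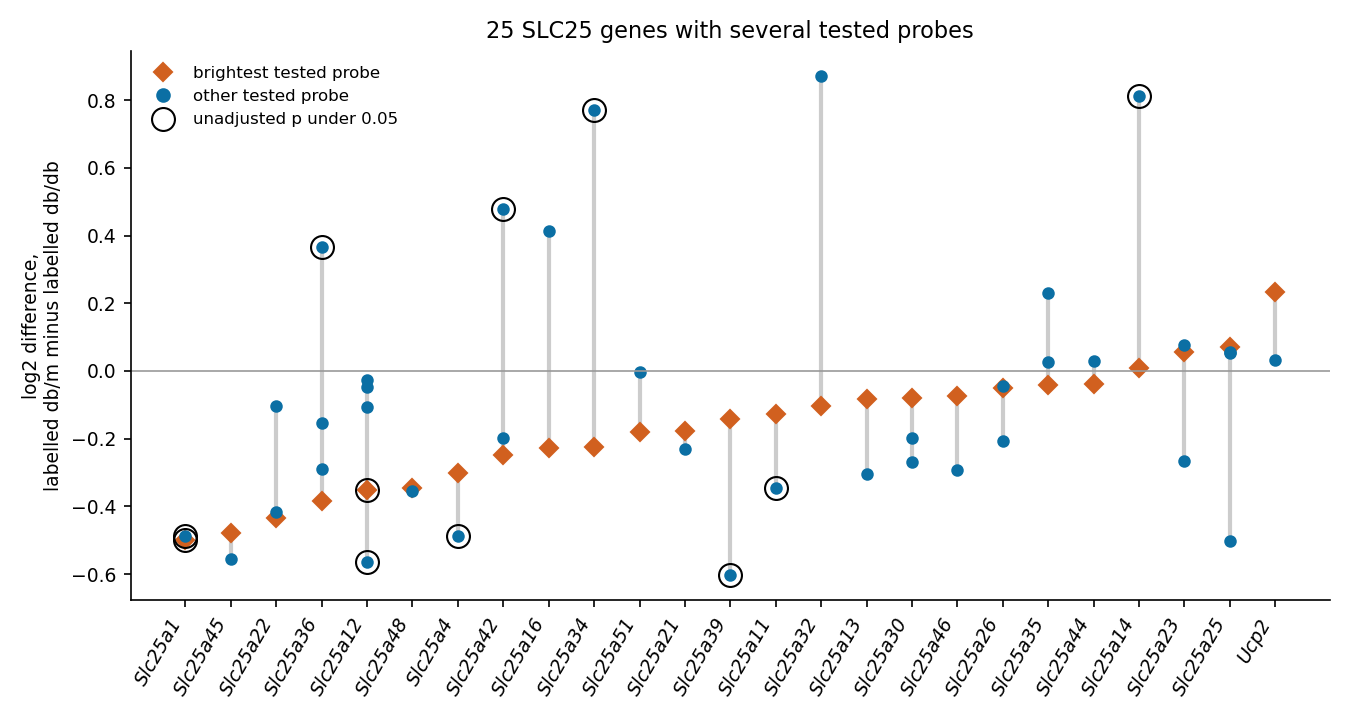
Log2 difference (labelled db/m minus labelled db/db) of every tested probe of the 25 carrier genes that had more than 1, with a diamond for the brightest probe, a dot for the others and a ring for a nominal p. The probes of Slc25a1 coincide near -0.49, while those of Slc25a34, Slc25a36 and Slc25a42 lie on both sides of 0.

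Genes that work with the carriers were described as a fixed list of 53, of which 52 were tested, with a median of -0.14 and 6 nominally lower and 1 nominally higher (9.76% and 5.44% of all genes). Among 14 enzymes of the malate-aspartate shuttle and of the citrate and ornithine routes, 3 were nominally lower. Got2, the aspartate aminotransferase of the matrix, which makes the aspartate that Slc25a12 exports, gave 5.02, 5.30 and 5.07 in the arrays labelled db/m and 5.62, 5.55 and 5.45 in those labelled db/db, a difference of -0.41 (limma adjusted p = 0.24). Pcx, pyruvate carboxylase, differed by -0.51 (limma adjusted p = 0.248) and Glud1, glutamate dehydrogenase, by -0.54 (limma adjusted p = 0.274), with overlapping arrays for Glud1. The cytosolic shuttle enzymes Got1 and Mdh1 were at -0.08 and 0.03, and Acly, which cleaves the citrate that Slc25a1 exports, was at -0.14. Carrier proteins are inserted into the inner membrane by the TIM22 complex. Of 10 listed genes of the import route, which include outer membrane TOM genes, Timm22 (-0.30) and the chaperone Timm9 (-0.32) were nominally lower. Of 7 regulators of mitochondrial genes Tfam, which maintains mitochondrial DNA, was nominally lower at -0.31, while Ppargc1a was at 0.06 and Nrf1 at 0.08. Mcub, a subunit that dampens the calcium uniporter, was the 1 nominally higher gene of the list at 0.37, and of 6 tested outer membrane channels and kinases 0 had a nominal p. Of the 18 alternatives, the nominal p was lost in 11 for Glud1, in 10 each for Tfam, Timm9 and Timm22, in 9 for Mcub, in 6 for Pcx and in 1 for Got2.

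**Figure D5:**
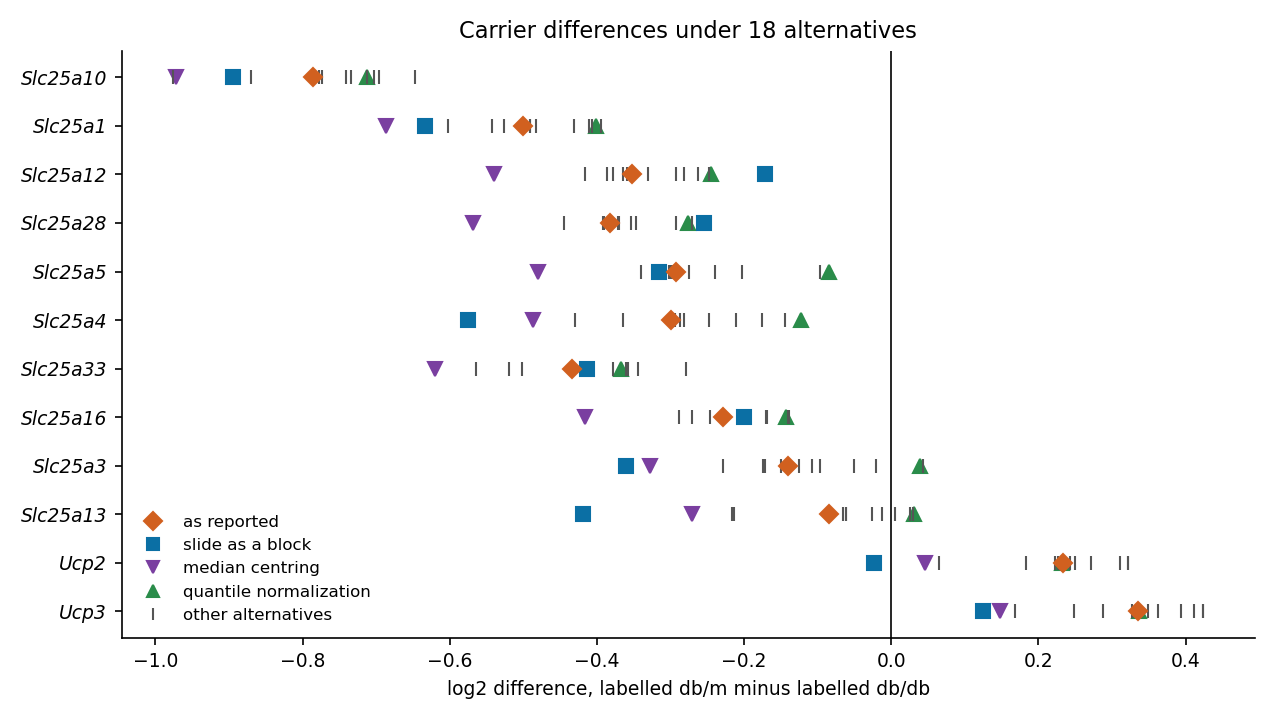
Log2 difference (labelled db/m minus labelled db/db) of 12 named carriers as reported (diamond) and under each of 18 alternatives (other marks). Slc25a10 stays between -0.98 and -0.65 and Slc25a1 between -0.69 and -0.40, Slc25a13, Slc25a3 and Ucp2 cross 0, and the slide as a block, which rests on 2 arrays, moves Slc25a12 to -0.17.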

How the data were processed

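RNA of the renal cortex was labelled with Cy3 and hybridised to 6 one-colour arrays, 3 per labelled group. The authors deposited, per array, the intensity of each spot from Agilent Feature Extraction 10.7.1.1 (version from the submitters' processing notes), background-subtracted and not scaled between arrays, and a table of log2 values whose columns correlated with the log2 intensity (r from 0.99833 to 0.99996) and looked quantile normalised. The authors' test for the arrays is not given in the sources used here. Control spots and 135 probes with an outlier flag were left out and spots of a probe averaged. Each array's log2 intensities were set against their own 75th percentile. Groups were compared over all tested probes with limma 3.58.1 (lmFit and eBayes) in R 4.3.3, with Benjamini-Hochberg adjustment, and the fit was tested on simulated data.

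From 51.6% to 59.0% of the probes were well above background per array, and 0 spots were saturated. The number of arrays limits the precision, and 3 arrays against 3 allow no exact permutation p (two-sided) below 0.1. The replicate numbers of the labels did not pair the arrays. Probe positions are those of the scanner files (mm9), and RefSeq promoters are on GRCm38.p6.

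The members, roles and lists were chosen with earlier results of these data known. Named were the carriers whose brightest tested probe had an unadjusted p under 0.05 or groups that do not overlap, Ucp1, Ucp2, Ucp3, Slc25a3, Slc25a4, Slc25a5, Slc25a10 and Slc25a13, probes that disagree within a gene, and partner genes with an unadjusted p under 0.05. Other carriers are given in role groups. Markers of thick limb, distal convoluted tubule, collecting duct, podocyte, endothelium, adrenal and skeletal muscle had median differences of 0.31, -0.16, -0.26, -0.12, 0.24, -0.45 and -0.25. Alternatives were other scalings and background corrections, other filters, the methods' t-test (the equal-variance form of the ANOVA the paper names), other variance models, slide or replicate as a block, 1 probe per gene and each array left out.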

Additional observations from a re-analysis of the deposited data

How the results depend on the processing

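Across the alternatives tried, 0 carrier probes passed the adjusted p or the screen. By limma with the values as reported 14 carrier probes had an unadjusted p under 0.05, and by the methods' t-test 12 lower and 4 higher probes did (11.2% and 4.28% of all probes). The count of nominally lower probes, 10 as reported, was 23 with median centring (19.3% of all probes), 2 with the slide as a block (5.16%), 20 with the replicate block (13.6%), 5 with 1 probe per gene (9.76%), and from 6 to 21 when each array was left out (4.06% to 13.7%). The count of nominally higher probes, 4 as reported, was 2 with median centring (3.02% of all), 1 with the slide as a block (4.55%), 0 with 1 probe per gene (5.44%), and from 2 to 6 when each array was left out (3.63% to 11.2%). The median of the carriers was -0.33 with median centring and -0.05 with the percentile taken over tested probes, and each of these moved all probes alike. The cause of these shifts was not tested, except that 1 probe per gene tests fewer probes and the slide as a block rests on 2 arrays.

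The replicate block was an alternative only, since arrays of the same number shared a number and no more. Their deviations correlated by 0.354, 0.148 and 0.0461 for numbers 1, 2 and 3, and labelled db/m replicate 2 correlated as closely with labelled db/db replicate 3 (0.149) as with its own number.

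Of 28 single-gene or single-probe results, 25 changed sign in no alternative. Slc25a13 was at 0.031 after quantile normalization, 0.029 in the deposited log2 table, 0.0052 with the percentile taken over tested probes (an alternative chosen after seeing the data) and from -0.22 to 0.026 when each array was left out, the latter without labelled db/m replicate 1. Slc25a3 was at 0.039 after quantile normalization and 0.043 in the deposited table, and Ucp2 at -0.024 with the slide as a block. Of 21 results with an unadjusted p under 0.05, 3 kept it in every alternative, those of Slc25a10, Slc25a1 and the second Slc25a34 probe. Slc25a12 lost it in 5 alternatives, among them the slide as a block (-0.17). Over all probes, the adjusted p was passed by 59 probes without labelled db/m replicate 2 and by 123 without labelled db/db replicate 3. Signals near background limit the dim probes of Slc25a14 and Slc25a32.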
